A study of Mus musculus with 5 samples.

Results

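The cytosolic ribosomal protein genes encode the protein parts of the ribosomes that translate nuclear-encoded messages in the cytoplasm. They were taken as the protein-coding genes of GENCODE M21 on mouse build GRCm38 whose symbols begin with Rpl or Rps and a digit, together with Rplp0, Rplp1, Rplp2 and Rpsa, without the ribosomal S6 kinases. This gave 92 of 55421 genes in the count table, 57 named for the large subunit and 35 for the small subunit. They comprise 77 core genes (46 large and 31 small), 7 paralogs, 7 retrogenes and Rps19bp1. Genes with -ps in their symbol and Rps27rt are called retrogenes here, and all of them are annotated as protein-coding. Rps19bp1 encodes a binding protein of Rps19 and no ribosomal protein.

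RNA came from whole cerebella of mice at postnatal day 14, both sexes mixed. The 3 Yy1 cKO libraries were of genotype Pcp2 Cre/+; Yy1 fx/fx, and the 2 control libraries, from littermates, of genotype Pcp2 Cre/+; Yy1 fx/+. Both groups therefore carried the Pcp2 Cre allele, which drives recombination mainly in Purkinje cells, and the controls carried 1 floxed Yy1 allele, which the recombinase can delete too. Nothing in the labels ties a replicate number to a litter or a preparation, so p-values measure the spread between these 5 libraries.

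Each ribosome joins a small subunit, which reads the mRNA, to a large subunit, which forms peptide bonds and releases the chain through an exit tunnel. Ribosomal protein mRNAs are abundant in growing cells, and most begin with a C and a run of pyrimidines, the TOP motif, through which mTOR signalling controls their translation. Each gene has left many processed pseudogenes in the mouse genome, which resemble its spliced mRNA. YY1 is a zinc finger transcription factor, and its binding motif has been found near the start sites of several ribosomal protein genes.

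The library totals were 20305705, 18872728 and 18895209 counts in Yy1 cKO cerebella, against 18007663 and 17424860 in control cerebella. Of these counts the 92 genes held 0.258%, 0.264% and 0.256% in Yy1 cKO cerebella, against 0.362% and 0.352% in control cerebella. Yy1 itself was at 73.4, 81.7 and 75.8 CPM (counts scaled to library size by TMM) in Yy1 cKO cerebella, against 74.6 and 73.7 CPM in control cerebella. Its log2 fold change was 0.05 ± 0.065 (SE; edgeR quasi-likelihood test, adjusted p = 0.610), so a loss in Purkinje cells alone was not detectable in the whole tissue. A count per gene does not show whether the floxed exon was read.

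The tissue also differed in its cell type markers. The summed level of 10 markers of cycling precursors was 31.2 to 33.5 CPM in Yy1 cKO cerebella and 118 to 140 CPM in control cerebella, with 9 of 10 called lower. That of 10 markers of immature neurons was 1142 to 1234 CPM in Yy1 cKO cerebella and 2094 to 2166 CPM in control cerebella, again with 9 of 10 called lower. The summed markers of mature granule neurons (7 of 8 called higher, 3202 to 3628 against 2413 to 2510 CPM), of Purkinje cells (3 of 8 higher, 4820 to 5530 against 3819 to 4088 CPM) and of erythroid cells (4 of 6 tested higher, 596 to 963 against 263 to 304 CPM) were higher in every Yy1 cKO library than in both controls. Single markers did not all follow, and Itpr1 held 2697, 2806 and 2256 CPM of the Purkinje sum in Yy1 cKO cerebella, against 1548 and 1524 CPM in control cerebella. The summed markers of endothelium (3 of 5 called lower, 1 higher, 99.1 to 103 against 129 to 144 CPM) and of meninges (3 of 5 called lower, 106 to 149 against 211 to 277 CPM) were lower in every Yy1 cKO library than in both controls. Calls were also made for astrocytes (1 of 6 lower, 2 higher), oligodendrocytes (1 of 6 in each direction) and choroid plexus (1 of 3 tested higher), and for 0 of 5 tested microglial markers. No marker in these lists was at 0 in all libraries. In bulk tissue fewer cells of a type and less RNA per cell cannot be told apart, and the part of these markers in the results that follow was not tested.

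The start regions of 5 genes are shown because they carry the motifs counted here and belong to genes from different parts of the range of changes. Each is an 80-base window of RefSeq's promoter table on GRCm38.p6, with 50 bases before the annotated start and 30 from it, read 5′ to 3′ on the gene's own strand. Capitals mark AANATGGC (the YY1 motif), GGGCGG (Sp1) or CCGGAAG (Ets), or their reverse complements. The windows are chr16:33056432-33056511 (+) for Rpl35a, chr7:118116118-118116197 (-) for Rps15a, chr17:46782627-46782706 (-) for Rpl7l1, chrX:102189362-102189441 (-) for Rps4x and chrX:37085193-37085272 (-) for Rpl39. RefSeq gives Rpl35a several starts, and the one with the TOP start is printed.
Rpl35a: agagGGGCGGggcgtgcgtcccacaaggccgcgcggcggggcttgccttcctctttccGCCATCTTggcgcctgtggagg
Rps15a: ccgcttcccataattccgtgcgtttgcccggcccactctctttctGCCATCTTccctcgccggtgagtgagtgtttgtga
Rpl7l1: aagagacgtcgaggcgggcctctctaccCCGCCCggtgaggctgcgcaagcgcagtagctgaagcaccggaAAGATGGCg
Rps4x: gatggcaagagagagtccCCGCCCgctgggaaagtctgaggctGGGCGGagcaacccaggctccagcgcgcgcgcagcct
Rpl39: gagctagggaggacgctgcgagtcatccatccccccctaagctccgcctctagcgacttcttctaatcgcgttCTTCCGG

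In these windows the YY1 motif lies on the reverse strand at position 9 of Rpl35a and at position -5 of Rps15a, across its start, and on the forward strand at position 22 of Rpl7l1, counting the first transcribed base as 1. Rps4x and Rpl39 hold no match to it anywhere in the full window from 250 bases before to 50 bases from the start. By own counts Rps4x and Rpl39 were called lower, and Rpl35a, Rps15a and Rpl7l1 were not. The printed genes do not stand for all genes with the motif. Rpl10, Rpl22 and Rps19, not printed, hold it further before a RefSeq start and were called lower. Their log2 fold changes were -0.42, -0.38 and -0.36. RefSeq gives Rpl22 and Rps19 several starts, and not every window of either gene holds the motif. For Rpl22 the match is at -154 of the more upstream start, and the window next to its GENCODE start has none. Of the 92 genes, 66 had an entry in RefSeq's promoter table, with 78 windows among its 32851. Searched on both strands, AANATGGC was in 21.8% of the genes' windows and 6.05% of all windows, GGGCGG in 60.3% and 35.7%, and CCGGAAG in 34.6% and 8.86%. Windows of 1 gene can overlap, so a site can count more than once. The 17 windows with AANATGGC came from 13 genes. TATAAA was in 8.97% of the genes' windows and 13.6% of all. A C at the start followed by at least 4 pyrimidines was in 17.9% of the genes' windows and 2.51% of all windows, on the gene's strand. It was sought only at the annotated first base, so a run that begins elsewhere in a window was not counted. A gene without this match is therefore not shown to lack a TOP mRNA. Such a match is a run of letters and not a measured binding site.

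Levels of ribosomal protein mRNA were lower in Yy1 cKO cerebella in both subunits. Of the 87 genes that passed the filter on low counts, 48 fell (edgeR quasi-likelihood test with Benjamini-Hochberg adjustment over 20388 genes, adjusted p under 0.05), where 12.6% of all genes tested were called lower. That is 55.2% of the 87. None was called higher, where 10.7% of all genes were. At an unadjusted p under 0.05 edgeR gave 2 higher and 58 lower, a threshold not counted over all genes. DESeq2, run on every gene with at least 1 count, took in 89 of the ribosomal protein genes. With adjustment it called 0 of them higher and 41 lower, beside 1851 higher and 1954 lower of 34112 genes. At an unadjusted p under 0.05, again not counted over all genes, DESeq2 gave 1 of them higher. In 66 of the 87 genes every Yy1 cKO library lay below both control libraries, against 27% of all genes, and in 2 genes, Rps2 and Rps18, every Yy1 cKO library lay above both, against 25.2% of all genes. The log2 fold changes of the genes called lower ran from -0.79 to -0.24, and the median over the 87 genes was -0.35, beside -0.00 over all genes tested. With a single control left the count was 22 without control 1 and 21 without control 2, and the calls over all genes fell likewise, to 1267 and 1300 lower from 2577. The other 5 genes (Rpl3l, Rpl10l, Rpl39l, Rpl9-ps1 and Rpl36-ps4) had at most 9 counts in any library and were not tested.

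**Figure D1:**
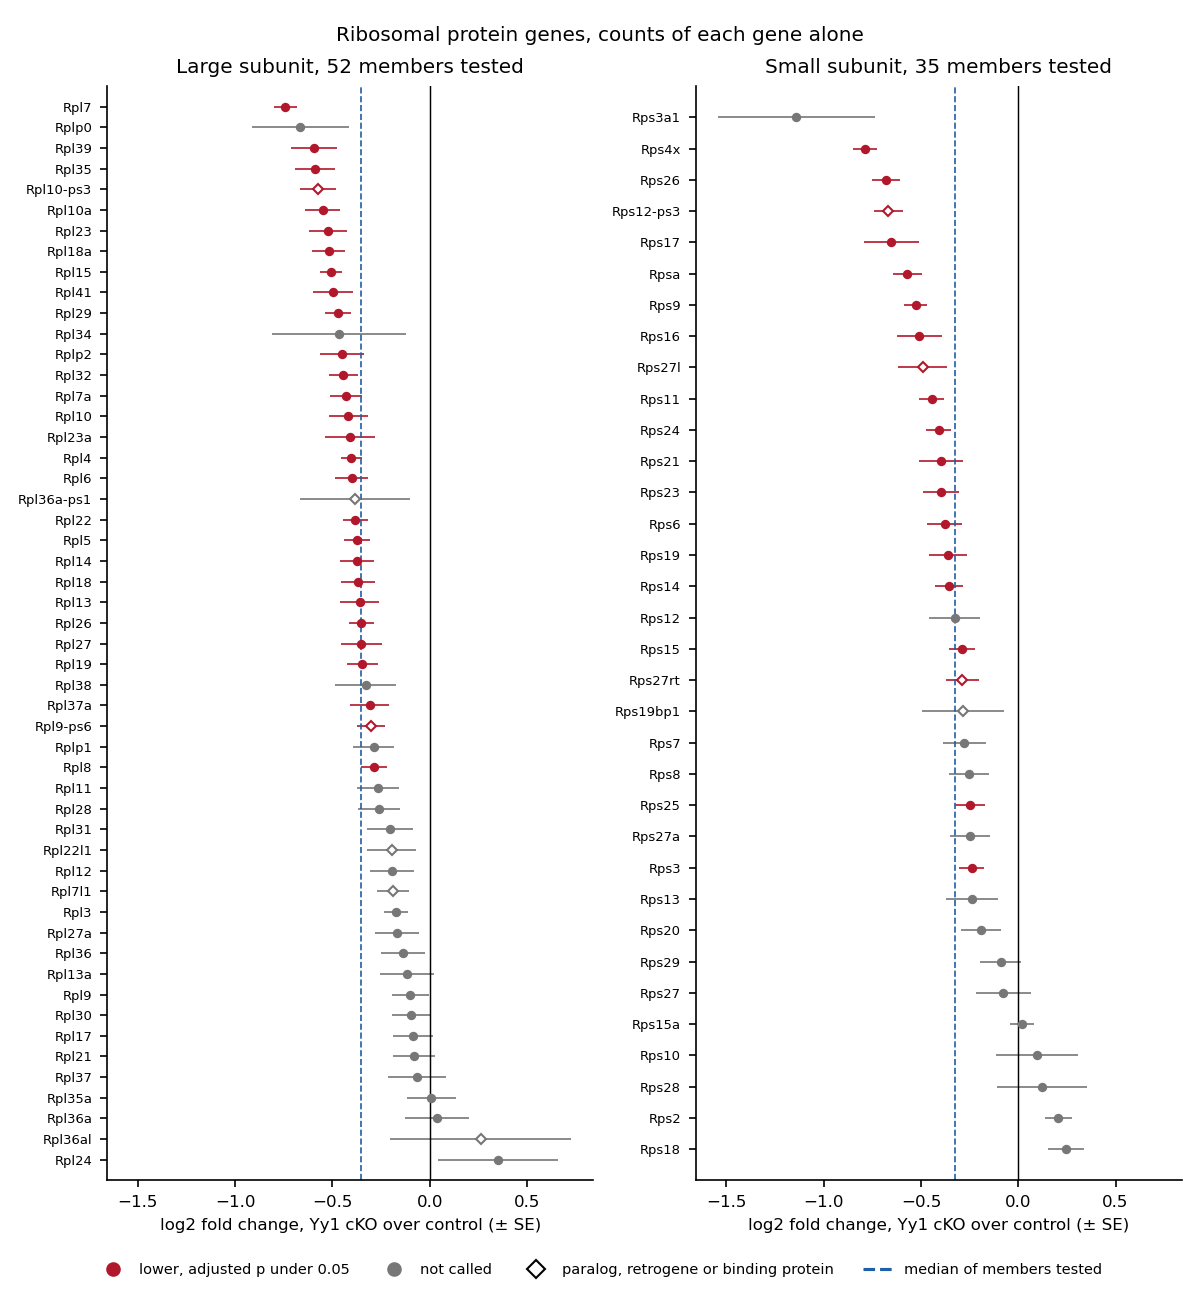
Log2 fold change (Yy1 cKO over control, x axis, ± SE from the edgeR fit of 3 and 2 libraries) of 86 of the 87 tested genes, large subunit on the left and small subunit on the right, red where called lower. Most genes lie left of 0, and none of the genes to the right of it was called.

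In the large subunit 28 of 52 tested genes fell, with a median log2 fold change of -0.35, and in the small subunit 20 of 35, with a median of -0.33. The summed level of the 46 large core genes was 1355, 1398 and 1345 CPM in Yy1 cKO cerebella and 1800 and 1782 CPM in control cerebella, or 1366 ± 28.1 against 1791 ± 12.5 CPM (SD, n = 3 and 2). For the 31 small core genes it was 1055, 1081 and 1035 CPM in Yy1 cKO cerebella and 1382 and 1336 CPM in control cerebella, or 1057 ± 22.8 against 1359 ± 32.5 CPM. The groups did not overlap in either sum. The ratio of the large sum to the small sum was 1.29 ± 0.0072 in Yy1 cKO cerebella and 1.32 ± 0.022 in control cerebella. Counted together with their gene copies, as described below, the ratio was 1.89 ± 0.026 and 1.78 ± 0.017, so which subunit fell further depends on how the copies are counted. Without Rps2 and its copies, left out after their values were seen, the ratios were 2.06 ± 0.026 in Yy1 cKO cerebella and 2.03 ± 0.019 in control cerebella, and the libraries of the groups overlapped.

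The small subunit gene with the smallest p was Rps4x, X-linked, whose product eS4 sits in the body of the subunit. It had 907, 871 and 922 counts in Yy1 cKO cerebella, against 1557 and 1446 in control cerebella. Every Yy1 cKO library was well below both controls, with a log2 fold change of -0.79 ± 0.063 (edgeR, adjusted p = 3.21e-05). Rps26, at the mRNA exit channel and mutated in Diamond-Blackfan anaemia, had 802, 670 and 718 counts in Yy1 cKO cerebella, against 1204 and 1053 in control cerebella. Its log2 fold change was -0.68 ± 0.073 (edgeR, adjusted p = 1.85e-04). Rps15, a protein of the small subunit head and the highest of the 92 genes in level per kb of exon, fell less, by 0.29 on the log2 scale ± 0.067 (edgeR, adjusted p = 0.0127).

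In the large subunit Rpl7 fell furthest among the genes called. It had 1370, 1275 and 1374 counts in Yy1 cKO cerebella, against 2247 and 2083 in control cerebella. The groups were far apart, with a log2 fold change of -0.74 ± 0.059 (edgeR, adjusted p = 3.10e-05). Rpl15, another Diamond-Blackfan anaemia gene, had 1044, 956 and 951 counts in Yy1 cKO cerebella, against 1372 and 1327 in control cerebella, a log2 fold change of -0.51 ± 0.058 (edgeR, adjusted p = 2.58e-04). Rpl29, a small basic protein also known for binding heparin, was at 931, 808 and 785 counts in Yy1 cKO cerebella, against 1153 and 1099 in control cerebella, and fell by 0.47 on the log2 scale (edgeR, adjusted p = 9.85e-04). Rpl41, Rpl8, Rplp2 and Rps3 themselves held at least 99% of the reads of gene and copies, and each was called lower by its own counts.

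The exit tunnel is lined or bordered by Rpl4, Rpl17, Rpl22, Rpl39 and their neighbours. Of the 9 listed genes 7 fell, with a median log2 fold change of -0.38, beside 55.2% and -0.35 over the 87 tested genes. Rpl4, which forms the narrow part of the tunnel, had 2764, 2525 and 2451 counts in Yy1 cKO cerebella, against 3396 and 3193 in control cerebella, a log2 fold change of -0.40 ± 0.054 (edgeR, adjusted p = 6.32e-04). Rpl39, a short protein of the tunnel's wide end, had 178, 157 and 157 counts in Yy1 cKO cerebella, against 263 and 216 in control cerebella, a log2 fold change of -0.60 ± 0.12 (edgeR, adjusted p = 0.00621). Rpl39 is on the X chromosome, as are Rps4x and Rpl10, which also fell (-0.42 for Rpl10, edgeR, adjusted p = 0.0146), and Rpl36a, which did not pass the test (0.04, adjusted p = 0.904). Among 11 Diamond-Blackfan anaemia genes 7 fell, with a median of -0.36, close to the 55.2% and -0.35 of the 87 tested genes.

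The P stalk is the lateral arm of the large subunit that recruits elongation factors, built of Rplp0 with Rplp1 and Rplp2 on a base formed with Rpl12. All 4 genes had negative log2 fold changes, as did 78 of the 87 tested genes, and 1 of the 4 was called. Rplp2 had 269, 280 and 232 counts in Yy1 cKO cerebella, against 348 and 340 in control cerebella, a log2 fold change of -0.45 ± 0.11 (edgeR, adjusted p = 0.0180). Rplp1 was at -0.29 (edgeR, adjusted p = 0.0770), Rpl12 at -0.19 (adjusted p = 0.251) and Rplp0 at -0.66 ± 0.25 (adjusted p = 0.153). Of the 5S ribonucleoprotein, whose free form binds the p53 regulator MDM2, Rpl5 fell by 0.37 on the log2 scale (edgeR, adjusted p = 0.00316). Rpl11 was at -0.27 (edgeR, adjusted p = 0.109).

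Paralogs were set against their core partners. Rpl7l1, the paralog of Rpl7 that takes part in ribosome assembly, had 722, 696 and 620 counts in Yy1 cKO cerebella, against 785 and 711 in control cerebella, and a log2 fold change of -0.19 ± 0.082 (edgeR, adjusted p = 0.134). As a share of Rpl7 counts it was 52.7%, 54.6% and 45.1% in Yy1 cKO cerebella, against 34.9% and 34.1% in control cerebella. The groups of shares did not overlap and differed by 0.55 on the log2 scale. Rps27l counts were 93.5%, 112% and 96.4% of Rps27 counts in Yy1 cKO cerebella, against 142% and 126% in control cerebella, a difference of -0.42. Rps27l, a p53 target, was itself called lower (-0.49 ± 0.13, edgeR, adjusted p = 0.0203), while Rps27 was at -0.08 (adjusted p = 0.751). Rps27 held 18.3% of the reads it shares with its copies and was called lower with them, at -0.28 (adjusted p = 0.0218), so this share rests on how its reads were split. Rpl22l1, which can replace Rpl22 in the ribosome, was at 23.1%, 21.9% and 20.6% of Rpl22 in Yy1 cKO cerebella, against 18.7% and 19.7% in control cerebella, a difference of 0.18. The exact permutation p-values (two-sided) of these 3 pairs were 0.1, 0.1 and 0.2, adjusted to 0.15, 0.15 and 0.2 over the pairs, and 0.1 is the smallest that 3 against 2 libraries can give. Both Rpl22l1 (-0.20, edgeR, adjusted p = 0.298) and Rpl3 (-0.17, adjusted p = 0.0755) missed the threshold of the fit, and Rpl22 fell by 0.38.

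The paralogs known from muscle and testis were close to absent from the counts. Rpl3l, the muscle form of Rpl3, had 2 to 9 counts per library. Of those known from male germ cells, Rpl10l had 0 counts in all libraries, and Rpl39l had 1 count in 1 Yy1 cKO library. Rpl36al, the paralog of Rpl36a and not counted among these, had 7 to 17 counts, with a log2 fold change of 0.26 ± 0.47 (edgeR, adjusted p = 0.740).

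Of the 7 retrogenes 4 were among the highest genes per kb of exon, while Rpl36-ps4 and Rpl9-ps1 had no counts and Rpl36a-ps1 was at 3.81 CPM per kb. The mean level of Rpl10-ps3 over the 5 libraries was 96.1 CPM per kb, beside 13.2 for its parent Rpl10, and that of Rps12-ps3 was 85.3 beside 5.57 for Rps12. Rps27rt was at 77.1 beside 6.82 for Rps27, and Rpl9-ps6 at 76.5 beside 6.12 for Rpl9. Of core genes, Rps15 was at 103, Rpl4 at 76.7 and Rplp1 at 76.1 CPM per kb. The exons of an annotated core gene join those of all its transcripts, which lengthens the denominator for spliced genes. Rpl10-ps3 had 1208, 1264 and 1029 counts in Yy1 cKO cerebella, against 1799 and 1564 in control cerebella, and Rps12-ps3 had 713, 583 and 642 against 1015 and 966. Both fell (-0.57 and -0.67 on the log2 scale, edgeR, adjusted p = 0.00277 and 2.02e-04), as did Rpl9-ps6 (-0.30, adjusted p = 0.0123) and Rps27rt (-0.29, adjusted p = 0.0336). A read from a spliced ribosomal protein mRNA can match such a copy equally well, and no source used here says how reads with several matches were counted, so the split of reads between a gene and its copies is uncertain.

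To see how far this split matters, the counts of each core gene were added to those of its retrogenes and of the pseudogenes whose sequence matches it. The 1143 matched pseudogenes held 0.408%, 0.408% and 0.388% of all counts in Yy1 cKO cerebella, against 0.595% and 0.571% in control cerebella, which is more than the 92 genes held. Of these pseudogenes 421 had no count and 298 were tested. Of the 298, 134 (45.0%) were called lower, where 12.6% of all genes tested were. The median log2 fold change over the 298 was -0.42. None of the 298 was called higher by edgeR, where 10.7% of all genes were, or by DESeq2. In edgeR 3 were higher at an unadjusted p under 0.05, a threshold not counted over all genes. A core gene held a median of 32.1% of the reads of its own sum, from 2.29% for Rpl24 to 100% for Rpl8 and Rpl41.

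By these sums 72 of the 77 core genes were called lower (edgeR quasi-likelihood test, adjusted over 20085 features), where 12.4% of all features were. None was called higher, where 10.5% of features were, and 1 was higher at an unadjusted p under 0.05, a threshold not counted over all features. The large subunit had 45 of 46 lower, with a median log2 fold change of -0.37, and the small subunit 27 of 31, with a median of -0.41. The 5 core genes not called were Rpl13a, Rps15a, Rps18, Rps21 and Rps29. Of the 72, 42 were also called by their own counts, 30 by the sums alone, and Rps21 by its own counts alone. Among the 25 genes that held at least 50% of their sum 20 were called by their own counts, and among the other 52 genes 23 were. The sums were made after the counts had been seen, and they add reads that may come from pseudogene loci themselves.

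**Figure D2:**
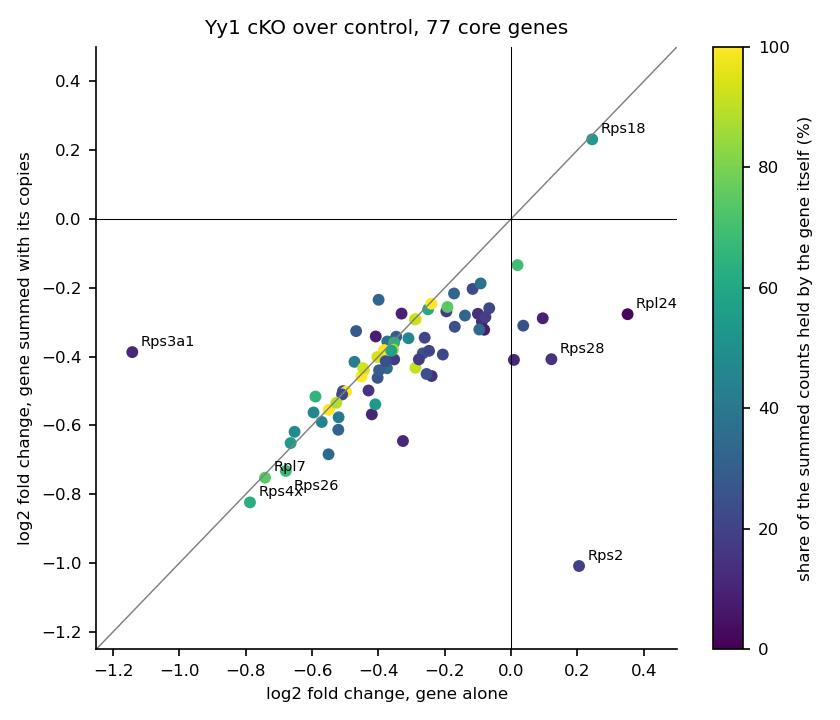
Log2 fold change (Yy1 cKO over control) of each of the 77 core genes from its own counts (x axis) and from its counts summed with those of its copies (y axis), coloured by the percent of summed counts that the gene itself held. Rps2 lies at 0.21 on one axis and -1.01 on the other, and Rps18 is the only gene above 0 on both.

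**Figure D3:**
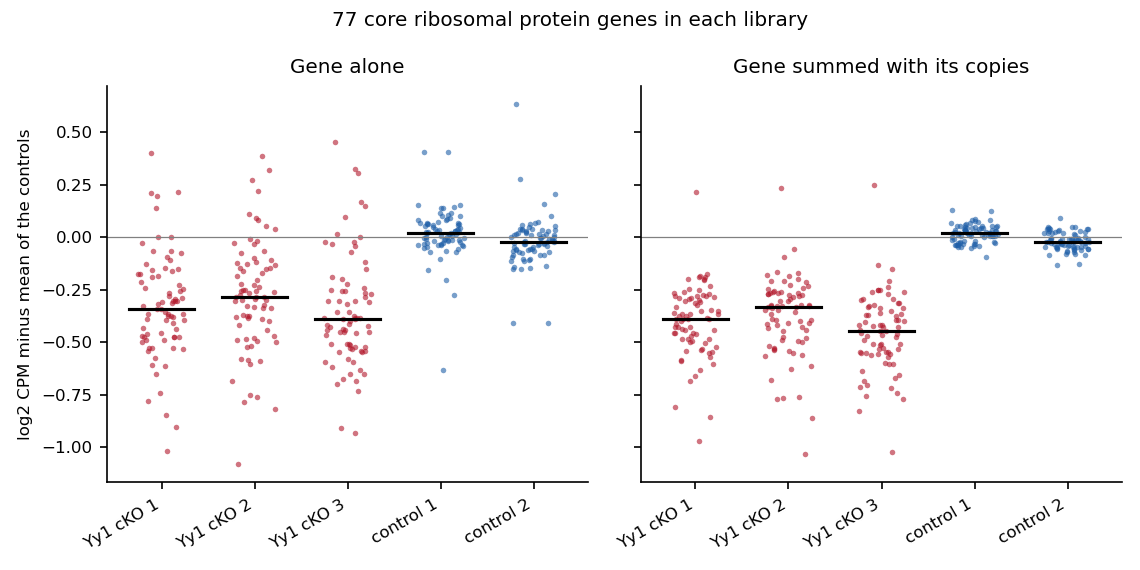
Log2 CPM of the 77 core genes in each library minus the gene's mean over both controls, for the gene alone and summed with its copies; black bars are medians. The Yy1 cKO medians are -0.34, -0.28 and -0.39 for the gene alone and -0.39, -0.33 and -0.45 for the sums, where the genes lie closer together.

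Of the 9 tested genes with a positive log2 fold change, 8 are core genes that could also be summed with their copies. Rps2, whose product uS5 lines the mRNA entry, had 1073, 1040 and 973 counts in Yy1 cKO cerebella, against 902 and 823 in control cerebella. Every Yy1 cKO library was above both controls, at a log2 fold change of 0.21 ± 0.068 (edgeR, adjusted p = 0.0571), and without Yy1 cKO 3 the gene was called higher (0.23, adjusted p = 0.0138). Summed with its copies Rps2 had 4007, 3530 and 3626 counts in Yy1 cKO cerebella, against 7479 and 6929 in control cerebella. That is a log2 fold change of -1.01 ± 0.055 (edgeR, adjusted p = 3.87e-06), the lowest of the 77 sums and opposite in sign to the gene's own counts. Among its copies Rps2-ps10 had 523, 465 and 487 counts in Yy1 cKO cerebella, against 1793 and 1654 in control cerebella, a log2 fold change of -1.86 ± 0.062 (edgeR, adjusted p = 2.26e-07). The gene's own share of the sum was 26.8%, 29.5% and 26.8% in Yy1 cKO cerebella, against 12.1% and 11.9% in control cerebella.

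Rps18, a protein of the small subunit head that bridges to the large subunit, stood apart from the rest. It had 446, 413 and 446 counts in Yy1 cKO cerebella, against 352 and 357 in control cerebella. Its log2 fold change was 0.24 by its own counts (edgeR, adjusted p = 0.0904) and 0.23 with its copies (adjusted p = 0.0610), so it was the only one of the 77 sums with a positive value, and neither value passed the test. With copies matched by symbol it was called higher (0.26, edgeR, adjusted p = 0.0432). Rps15a had 1360, 1324 and 1255 counts in Yy1 cKO cerebella, against 1245 and 1257 in control cerebella, groups that overlap, at 0.02 by its own counts and -0.13 summed (adjusted p = 0.123).

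The other 6 positive genes held a small share of their summed reads or, for Rpl36al, had few reads at all. The share was 2.29% for Rpl24, 9.26% for Rps10, 11.3% for Rpl35a, 14.8% for Rps28 and 24.7% for Rpl36a. Rpl24, at the bridge between the subunits, had 33, 30 and 32 counts in Yy1 cKO cerebella, against 31 and 17 in control cerebella, a log2 fold change of 0.35 ± 0.31 (edgeR, adjusted p = 0.464). With its copies it was at -0.28 (adjusted p = 0.00872). Rpl35a, Rpl36a, Rps10 and Rps28 had log2 fold changes of 0.01, 0.04, 0.10 and 0.12 by their own counts, none called. Summed, they were called lower at -0.41, -0.31, -0.29 and -0.41 (edgeR, adjusted p = 0.00110, 0.0327, 0.0109 and 0.0215).

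Rps3a1, Rplp0 and Rpl34 had wide errors, and the share of the summed reads that each gene held differed within a group. For Rps3a1 it was 8.30%, 8.21% and 8.51% in Yy1 cKO cerebella, against 8.0% and 20.8% in control cerebella, so that control 2 alone stood apart. Rps3a1, whose product eS1 lies near the mRNA exit, had 184, 162 and 183 counts in Yy1 cKO cerebella, against 225 and 522 in control cerebella. Its log2 fold change of -1.14 ± 0.40 was not called by edgeR (adjusted p = 0.129), while DESeq2 called the gene lower (adjusted p = 0.00183). Without control 2 Rps3a1 was at -0.37 in edgeR. With its copies it had 2218, 1974 and 2150 counts in Yy1 cKO cerebella, against 2813 and 2511 in control cerebella, and fell by 0.39 (edgeR, adjusted p = 0.00145). Rplp0, the base of the P stalk, had 1237, 1207 and 1762 counts in Yy1 cKO cerebella, against 1883 and 2410 in control cerebella. Its pseudogene Gm8730, which within each group was lowest where Rplp0 was highest, had 1029, 1002 and 478 counts in Yy1 cKO cerebella, against 1745 and 783 in control cerebella. Summed over all its copies Rplp0 had 2674, 2629 and 2406 counts in Yy1 cKO cerebella, against 4303 and 3483 in control cerebella, and fell by 0.65 ± 0.080 (edgeR, adjusted p = 4.92e-04). Rpl34 was at -0.47 ± 0.34 alone (edgeR, adjusted p = 0.416) and fell by 0.33 summed (adjusted p = 0.00845).

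**Figure D4:**
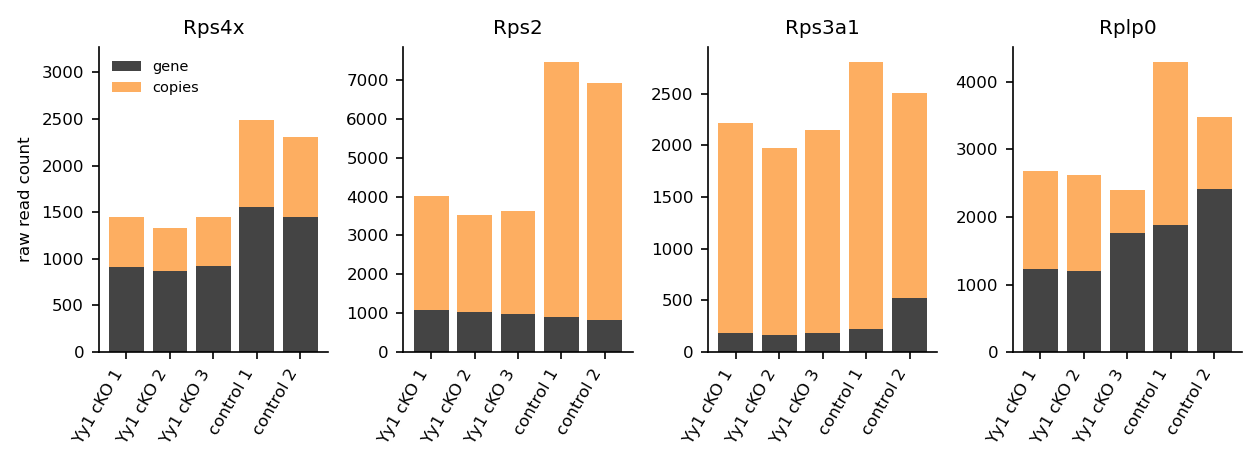
Raw read counts of 4 core genes (dark) and of their copies (orange) in each library, stacked, each panel on its own axis from 0. For Rps4x both parts are lower in the 3 Yy1 cKO libraries, for Rps2 only the copies are, for Rps3a1 control 2 alone has a larger dark part, and for Rplp0 the dark part is larger in Yy1 cKO 3 and control 2.

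The genes with the YY1 motif in any of their windows and those without it were set side by side as a description. By own counts 3 of 13 tested genes with the motif were called lower, at a median log2 fold change of -0.19, and 32 of 50 without it, at a median of -0.37. By counts summed with copies, which take in core genes only, 9 of 11 with the motif were called lower, at a median of -0.35, and 44 of 46 without it, at a median of -0.41. By own counts, genes with GGGCGG had 21 of 40 called and those without it 14 of 23, with medians of -0.36 and -0.31. Those with CCGGAAG had 14 of 25 called and those without it 21 of 38, with medians of -0.38 and -0.32. With TATAAA 2 of 7 were called and without it 33 of 56, with medians of -0.20 and -0.35. With a TOP start at the annotated base 7 of 14 were called and without it 28 of 49, with medians of -0.31 and -0.35. Summed with copies, 32 of 35 were called with GGGCGG and 21 of 22 without it, at medians of -0.39 and -0.40. For CCGGAAG it was 22 of 24 and 31 of 33, at -0.39 and -0.40. For TATAAA it was 6 of 6 and 47 of 51, at -0.48 and -0.39. For these 3 motifs the order of the medians turned from that by own counts. For a TOP start it was 10 of 13 and 43 of 44, at -0.35 and -0.40. The difference between these sets of genes was not tested.

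Some ribosomal proteins have symbols outside the Rpl and Rps pattern. Rack1, the scaffold protein of the small subunit head, was at 78.1, 82.1 and 73.9 CPM in Yy1 cKO cerebella, against 106 and 103 CPM in control cerebella, a log2 fold change of -0.42 (edgeR, adjusted p = 0.00124). Fau, which encodes a ribosomal protein fused to a ubiquitin-like protein, was at -0.08 (edgeR, adjusted p = 0.690). Translation factors and other genes with TOP mRNAs, a list that takes in Rack1 and Fau, had 13 of 20 called lower and 0 higher, at a median of -0.24. Eef1a1, the elongation factor that brings aminoacyl-tRNA, was at 635, 657 and 616 CPM in Yy1 cKO cerebella, against 1062 and 1046 CPM in control cerebella, and fell by 0.73 on the log2 scale (edgeR, adjusted p = 4.41e-05). Tpt1, a growth-related TOP mRNA, fell by 0.46 (adjusted p = 9.55e-04). Pseudogene copies of these genes were not summed.

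Other genes of ribosomes, their assembly and its control were read against the shares of all genes called, 12.6% lower and 10.7% higher. Of 77 tested mitochondrial ribosomal protein genes 2 were called higher and 2 lower, at a median log2 fold change of 0.05. Of 40 nucleolar assembly factors 3 were called higher and 3 lower, at a median of 0.04. Tcof1, a nucleolar factor of rRNA transcription, rose by 0.53 and Tsr2, a chaperone of Rps26, by 0.39 (edgeR, adjusted p = 0.00295 and 0.0102), and Npm1 and Nip7 fell by 0.24 and by 0.43 (adjusted p = 0.0283 and 0.0460). None of 19 RNA polymerase I genes was called, at a median of -0.03. Of 21 genes of growth signalling to ribosomes 6 were called higher and 4 lower, at a median of 0.09. Mycn, a driver of granule cell precursor division, had 4.68, 4.38 and 3.81 CPM in Yy1 cKO cerebella, against 18.5 and 14.3 CPM in control cerebella, a log2 fold change of -1.93 (edgeR, adjusted p = 3.10e-05). Mycl was at -1.50 (adjusted p = 2.08e-05), and Rptor and Max rose by 0.35 and 0.34 (adjusted p = 0.00154 and 0.00601). The lists share genes, and the difference between them was not tested.

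**Figure D5:**
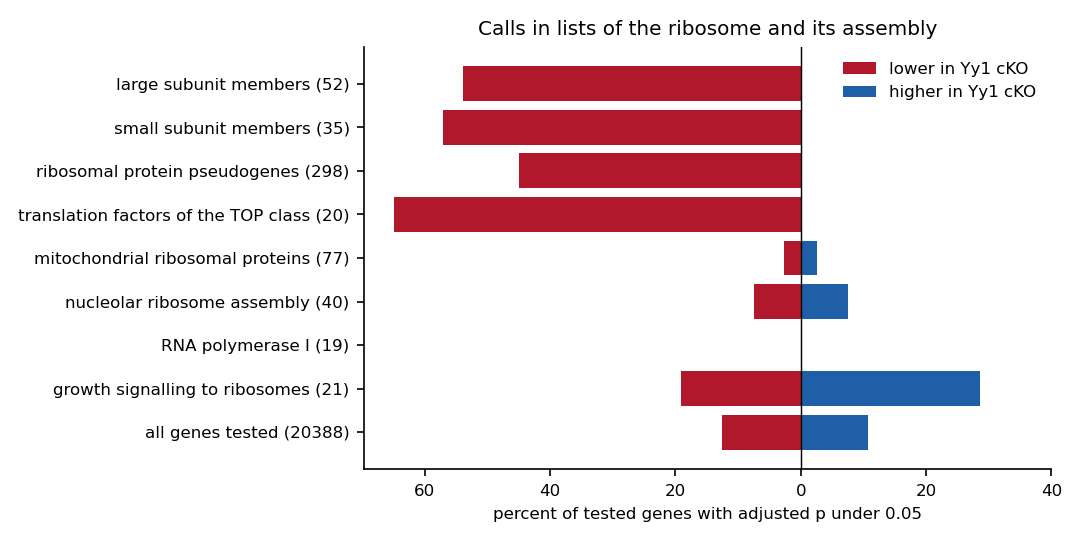
Percent of tested genes called lower (red, left) or higher (blue, right) in Yy1 cKO cerebella, edgeR adjusted p under 0.05, with the number tested in brackets. The ribosomal protein genes of both subunits, their pseudogenes and the TOP class reach further to the left than all genes tested, at 12.6%, and have no call to the right.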

How the data were processed

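Per the labels, total RNA was depleted of rRNA and made into strand-specific libraries, sequenced as paired reads of 150 bp. The submitters' processing notes name, with no role or order, STAR 2.7.1a, featureCounts and GRCm38; the strand setting and multi-mapping rules of the counting are not given in these sources. The deposited table of raw counts was used; a deposited normalized table, each column the raw counts divided by 1 constant, was not. Symbols came from GENCODE M21 (54673 identifiers matched with version, 567 without, 181 not). Library pairs were compared and none was a copy.

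Counts were tested with edgeR 4.0.16 by quasi-likelihood (R 4.3.3; TMM, filterByExpr, robust, no covariate), Benjamini-Hochberg adjusted over all genes, at 0.05; it was tested on simulated data. The common coefficient of variation was 10.5%, which limits the changes that can be seen with 3 and 2 libraries. Levels are TMM-scaled CPM. Pseudogenes were matched with BLAST 2.17.0 (at least 90% identity, 150 bases and 50% of the pseudogene). DESeq2 was version 1.42.0. Members, gene lists, tests and the rule for named genes (paralog pairs, P stalk, 5S particle; per subunit the smallest p, the extreme changes and the highest levels; every positive gene; in other lists the 2 smallest p per direction) were chosen with earlier results of these data known. Core genes at 99% of their sum, Gm8730 and Rps2-ps10 were picked after their values were seen. A few named genes are not reported here. Settings tried were other scalings, filters, DESeq2, no robust dispersion, a replicate block, Xist as covariate, sums with pseudogenes, length and GC offsets, and each library left out.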

Additional observations from a re-analysis of the deposited data

How the results depend on the processing

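The 48 genes called lower kept a negative log2 fold change under 15 other settings, as did the 44 that remain when copies are summed by sequence (the 4 called retrogenes are then part of a sum); 40 or more of them stayed called in each except without Yy1 cKO 1 (34) and without either control (21 each). The count called lower was 41 to 66 under settings that keep all libraries, 73 (of 82 features) with copies summed by sequence, and 21 to 47 with 1 library left out. The count called higher was 1 under the replicate block (Rps2), 1 with copies summed by symbol (Rps18), and 0 to 1 with 1 library left out (Rps2, without Yy1 cKO 3). Over all features calls lower were 1954 of 34112 with DESeq2, 3369 of 20388 with library totals and 3575 of 20388 under the replicate block. With copies summed they were 2548 of 20290 by symbol and 2491 of 20085 by sequence. Without Yy1 cKO 1, 2 and 3 in turn they were 1877 of 20131, 2011 of 20126 and 3127 of 20032. Calls higher were 3486 of 20388 under the replicate block, 2175 of 20290 by symbol and 2990 of 20032 without Yy1 cKO 3. The replicate numbers carry no stated shared origin. The block, in which Yy1 cKO 3 has no partner, is therefore only a setting. Deviations of same-numbered libraries correlated at -0.09 and 0.19. With 2 controls the control deviations mirror each other, so these values cannot decide whether libraries were paired. The median log2 fold change of all members was -0.43 with library totals, -0.30 under the replicate block, -0.38 with copies by sequence, -0.30 with length and GC offsets and -0.37 to -0.30 with 1 library left out. That of the large subunit was -0.43 with library totals. That of the small subunit was -0.40 with library totals, -0.40 and -0.41 with copies by symbol and by sequence, and -0.37 to -0.27 with 1 library left out. Over all genes tested the median was -0.08 with library totals, beside -0.00 in the main fit. Values with library totals therefore include a shift of the median of all genes. The large minus small median, -0.027, turned to 0.0029 under the replicate block and to 0.040 and 0.048 with copies by symbol and by sequence, and ran from -0.050 to 0.015 with 1 library left out. The summed levels were at -0.47 (large) and -0.45 (small) with library totals and at -0.46 (small) with copies by symbol. With copies by symbol and by sequence, Rps2 turned to -0.997 and -1.01, Rpl35a to -0.41 and -0.41, Rpl36a to -0.30 and -0.31 and Rps10 to -0.29 and -0.29; by sequence Rpl24 turned to -0.28 and Rps28 to -0.41. The cause was not tested.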
